A study of Drosophila melanogaster with 2 samples.

Results

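The 10 genes described here mark the glia of the fly brain and eye, and they were followed in heads of adult male Drosophila melanogaster on 2 Affymetrix DrosGenome1 arrays. They were chosen by name from the platform annotation, where 9 of the 10 genes had a probe set of their own, 10 probe sets in all among 13966 that were not controls. Eaat1 had none under its own symbol and was not analysed here. In the classes used here, repo and nrv2 were placed under several glial types, and alrm, Gs2 and Eaat1 under astrocyte-like glia. The genes wrapper and rumpel were placed under ensheathing or wrapping glia, and moody, loco and Inx2 under the glia of the blood-brain barrier. Both arrays were made from males of the w1118 strain (also spelled w118 in the labels), an inbred laboratory stock with a mutated white gene. Per the labels, the males were taken within 24 h of eclosion and held in constant darkness at 25 °C and 70% humidity with about 200 flies to a bottle. The unexposed array came from heads at adult day 3. The paraquat array also came from heads at adult day 3, from males fed sucrose with 15 mM paraquat for 30 h from adult day 2. Paraquat is a herbicide that undergoes redox cycling in cells and gives rise to superoxide. The labels describe food bottles for the unexposed males and sucrose for the exposed males, so diet and paraquat cannot be told apart. Each group held 1 array, made from heads sieved in bulk, so no difference below has a replicate check and no p-value was computed.

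Glia make up the non-neuronal part of the fly nervous system and are specified by the transcription factor Gcm, which switches on the homeodomain gene repo. Astrocyte-like glia send processes among synapses and clear glutamate and GABA, and ensheathing and wrapping glia enclose neuropil and axons. Perineurial and subperineurial glia separate the brain from the haemolymph, and the subperineurial cells form the septate junctions. In the insect head glia stand beside neurons, photoreceptors, fat body, muscle and haemocytes, and RNA of all of them was pooled on each array. Fewer cells of a type and less RNA per cell cannot be told apart in such samples.

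Values are intensities after each array was scaled to the same median. A floor was set at an intensity of 477.3, and a gene was called measured where a probe set reached the floor on both arrays. The highest control probe set for a transcript absent from flies stood at 446.5 (unexposed) and 533.2 (paraquat). An "at least" fold sets the brighter value against the higher of the floor and that control. This fold takes in no array error, so the true difference may be smaller. Ratios are paraquat over unexposed on the log2 scale, and the error beside each is the array error, 1 SE estimated from control probe sets. It leaves out the spread between flies and between RNA preparations.

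Most glial markers had lower signals on the paraquat array. Of the 9 genes with a probe set, 8 were measured on both arrays, and 7 of these 8 had log2 ratios below 0, as did 47.8% of all measured genes. At least 2-fold lower were 4 genes (wrapper, rumpel, Inx2 and nrv2), against a background of 8.08% of the 6178 genes measured on these arrays. At least 2-fold higher was 1 gene (loco), against a background of 8.03%. The remaining 3 (alrm, repo and Gs2) lay within 2-fold. The median log2 ratio of the 8 genes was -1.01, beside 0.03 over all 6178 measured genes. With moody kept at the floor as a member the median was -0.81, and with floors at the 60th and 80th percentiles it was -0.66 over the 6 and 4 genes left.

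**Figure D1:**
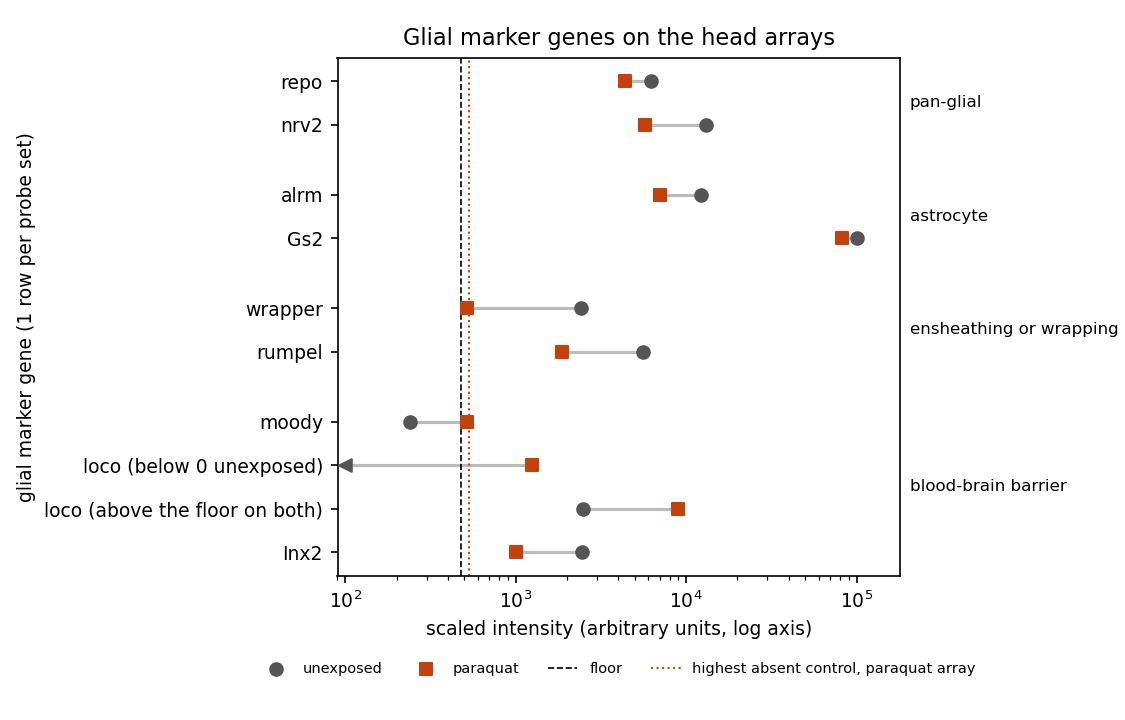
Scaled intensity of each glial marker probe set on a log axis, with the unexposed array as grey circles and the paraquat array as orange squares, and 1 array per group. The paraquat value lies to the left of the unexposed value for repo, nrv2, alrm, Gs2, wrapper, rumpel and Inx2 and to the right for moody and both loco probe sets. The triangle marks a value below 0 drawn at the edge of the axis.

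Among the markers of several glial types, repo encodes the homeodomain transcription factor found in nearly all lateral glia. Its intensity was 6242 unexposed and 4398 with paraquat, a log2 ratio of -0.51 ± 0.18 (1.42-fold lower). The 95% interval of array error ran from -0.87 to -0.14. The gene nrv2 encodes a beta subunit of the sodium and potassium pump, and its regulatory sequences are used to label wrapping and cortex glia. It stood at 13155 unexposed and 5708 with paraquat, a log2 ratio of -1.20 ± 0.15 (2.30-fold lower), with an interval of array error from -1.50 to -0.91. On these 2 arrays the difference at nrv2 was larger than that at repo. The array-error intervals of the 2 genes did not overlap, but they leave out the spread between flies and RNA preparations.

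Both astrocyte markers with a probe set had lower signals, and neither passed 2-fold. The gene alrm encodes a leucine-rich repeat protein whose regulatory region is a standard label for astrocyte-like glia. Its intensity was 12288 unexposed and 7014 with paraquat, a log2 ratio of -0.81 ± 0.14 (1.75-fold lower). Gs2 encodes the glutamine synthetase that turns glutamate taken up from synapses into glutamine. It had 101176 unexposed and 82275 with paraquat, a log2 ratio of -0.30 ± 0.12 (1.23-fold lower), the smallest difference among the 8 measured markers. The ratio of Gs2 was -0.14 after quantile normalization and -0.15 after loess. This probe set lay in the upper part of the range of an array whose highest deposited value was 167877, and whether brightness narrowed its ratio was not tested.

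The markers placed in the ensheathing or wrapping class, wrapper and rumpel, had the lowest ratios of the 8. The gene wrapper encodes an immunoglobulin-family surface protein known from midline and cortex glia, where it contacts axons and neuronal cell bodies. Its intensity was 2432 unexposed and 519.3 with paraquat, and the paraquat value did not exceed the highest absent control on that array. Set against that control its signal was at least 4.56-fold lower, a figure that leaves out the array error. The log2 ratio of -2.23 used in the counts carried an array error of 1.02, with an interval of array error from -4.24 to -0.22. The gene rumpel encodes a transporter of the SLC5 family carried by ensheathing glia. It had 5615 unexposed and 1880 with paraquat, both well above the absent controls, a log2 ratio of -1.58 ± 0.31 (2.99-fold lower). Its interval of array error ran from -2.19 to -0.97, and 187 of the 6178 measured genes had a lower ratio. The wider list for ensheathing, wrapping and cortex glia was mixed. Beside wrapper, rumpel and nrv2 it held 4 other measured genes, 2 with ratios below 0 (bumpel and kumpel) and 2 above (drpr and Eaat2), with a median of -0.43 over the 4. The summed intensity of the whole list was 84512 unexposed and 93600 with paraquat. Of its 7 measured genes, drpr (15744 and 36510) and Eaat2 (39783 and 45681) alone had higher signals with paraquat, and the other 5 had lower signals.

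The blood-brain barrier markers went in different directions. The gene moody encodes a G-protein-coupled receptor of subperineurial glia needed for septate junction organisation. Its intensity was 240.5 unexposed and 515.4 with paraquat, not above the highest absent control on either array, so no ratio is given. The gene loco encodes a regulator of G-protein signalling that acts with Moody in these cells. The brighter of its 2 probe sets stood at 2496 unexposed and 8936 with paraquat, a log2 ratio of 1.84 ± 0.24 (3.58-fold higher), with 90 of the 6178 measured genes having a higher ratio. The other probe set was at -1239 unexposed and 1242 with paraquat, at least 2.60-fold higher with the floor in place of the negative value. Both pointed the same way, but -1239 lay far below 0 beside an SD of 358.3 among absent controls. The second probe set is therefore weak support for the first. Inx2 encodes a gap junction protein that couples barrier glia to each other and is also made by many epithelia. It stood at 2433 unexposed and 1003 with paraquat, a log2 ratio of -1.28 ± 0.57 (2.43-fold lower), with an interval of array error from -2.39 to -0.16. When a pseudocount replaced the floor, the ratio of Inx2 was within 2-fold (-0.98).

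**Figure D2:**
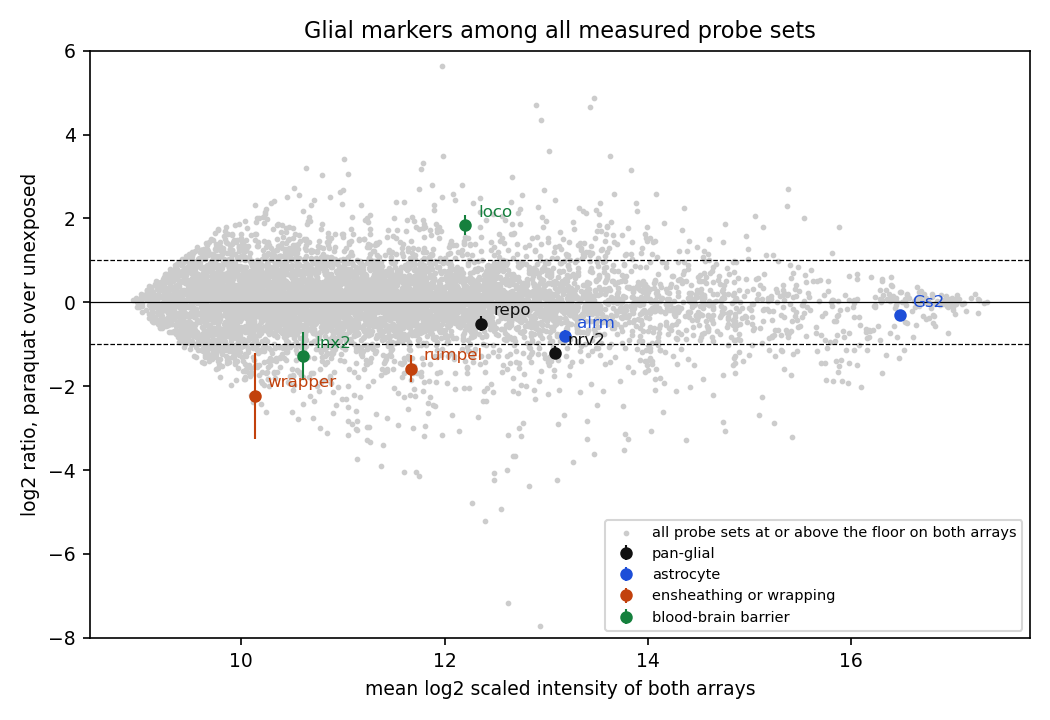
Log2 ratio of paraquat over unexposed against mean log2 intensity for every probe set at or above the floor on both arrays (grey), with the 8 measured glial markers coloured by class and bars of 1 array-error SE. Dashed lines mark 2-fold. Inx2, rumpel, nrv2 and wrapper lie below the lower line, loco at 1.84 lies above the upper line, and Gs2 lies near the bright end at -0.30.

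Several markers belong to families with other members on the arrays. The SLC5 transporter gene rumpel has a close pair of relatives, bumpel and kumpel, which are also known from glia. The intensity of bumpel was 1643 unexposed and 783.8 with paraquat, a log2 ratio of -1.07 ± 0.74. For kumpel, 6 probe sets were listed, and the 2 that were measured had log2 ratios of -1.10 ± 0.54 and -1.01 ± 0.94. Of the other 4, 3 were above the floor on the unexposed array alone, at 750.6, 579.8 and 902.8, and 1 was under it on both. All 3 transporter genes thus had lower signals on the paraquat array, and for bumpel and kumpel the values were near the floor.

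Of 8 innexin genes, 4 were measured and 3 of these had ratios below 0. Besides Inx2, the gap junction genes Inx3 (5165 unexposed, 2534 with paraquat) and ogre (10075 and 6340) had log2 ratios of -1.03 ± 0.26 and -0.67 ± 0.15. Inx3 was within 2-fold when a pseudocount replaced the floor (-0.91) and without further scaling (-0.99). Ogre protein forms channels together with Inx2 in glia. Inx5 had a ratio of 0.12 with an array error of 0.99. The genes zpg, Inx6 and Inx7 were under the floor on both arrays, and shakB had no probe set of its own.

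The sodium and potassium pump has 3 beta-subunit genes on the arrays, and they differed. Against -1.20 for nrv2, the log2 ratio was 0.22 ± 0.12 for nrv1 (17554 unexposed, 20466 with paraquat). For nrv3, which is known from neurons, it was -0.32 ± 0.12 (59985 and 47926), and between -0.32 and -0.02 over the alternative settings. The sign at nrv1 stayed above 0 and that at nrv2 below 0 under each alternative scaling.

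**Figure D3:**
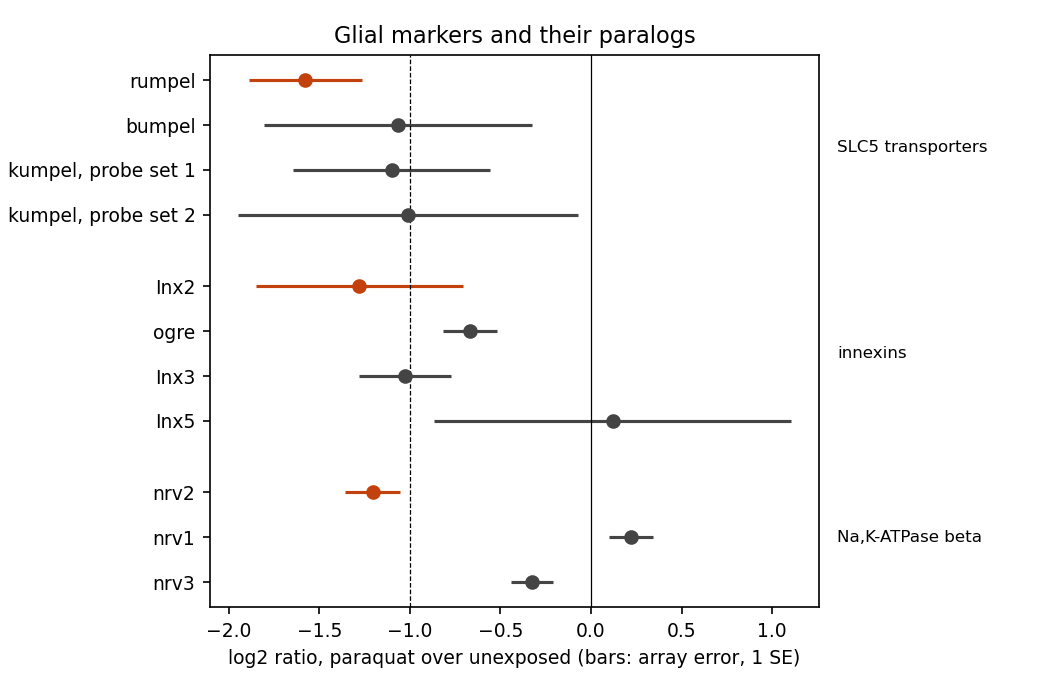
Log2 ratio of paraquat over unexposed for each measured probe set of the SLC5 transporter, innexin and sodium-potassium pump beta-subunit genes, with glial markers in orange, other genes in grey and bars of 1 array-error SE. The ratios of rumpel, Inx2 and nrv2 are the lowest of their families, and nrv1 (0.22) and Inx5 (0.12) lie above 0.

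Other genes known from glia were listed by the same classes. Leaving out the 10 markers, 16 of 22 were measured, 13 with ratios below 0 and 3 above, and their median log2 ratio was -0.58. At least 2-fold lower were 3 of the 16 (bumpel, kumpel and the trehalose transporter gene Tret1-1) and at least 2-fold higher was 1 (drpr), beside the backgrounds of 8.08% and 8.03%. As gene means these 3 lay close to 2-fold and were all within it when a pseudocount replaced the floor (bumpel -0.75, kumpel -0.75, Tret1-1 -0.92). Tret1-1 was also within 2-fold without further scaling (-0.99). With its brightest probe set alone, or with the floor at the 60th or 80th percentile, its ratio was -1.55. The genes bumpel and kumpel were not measured once the 60th percentile served as floor. In the astrocyte list all 9 measured genes, alrm and Gs2 included, had ratios below 0, beside 47.8% of all measured genes. The list median was -0.53, and none of the 9 passed 2-fold. Gat, the lowest of them, passed it after quantile normalization and after loess (-1.05). When a pseudocount replaced the floor, the ratio of wtrw, a channel gene of that list with a dim second probe set, was above 0 (0.29). The 95% intervals of array error of htl, wun2, Oct-TyrR, e (ebony) and wtrw in this list took in 0. Signals of wun2 (1059 unexposed, 682.9 with paraquat) and Oct-TyrR (890.9 and 615.7) lay near the floor. The GABA transporter gene Gat had 3511 unexposed and 1769 with paraquat, a log2 ratio of -0.99 ± 0.35. Gabat, the transaminase that breaks GABA down, had 24483 and 12452, a ratio of -0.98 ± 0.12.

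In the barrier list, Tret1-1, which carries trehalose from the haemolymph into glia, had a mean log2 ratio of -1.03 over probe sets at -0.51 ± 0.71 and -1.55 ± 0.13. The brighter probe set, of a type with fewer unique probes than the standard design, had 24391 unexposed and 8359 with paraquat. Mdr65, the drug-efflux transporter gene of the barrier, had 4678 and 2496, a ratio of -0.91 ± 0.26. Gli, a cell adhesion gene of the junctions between barrier cells, had 3010 and 4709, a ratio of 0.65 ± 0.23. The glial fate genes gcm and gcm2 were under the floor on both arrays, and pros, a transcription factor gene also active in neurons, had a ratio of -0.09 ± 0.14.

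Septate junction genes went both ways. Of 17 listed, 12 were measured, 5 with ratios below 0 and 7 above, and the median was 0.08 within a range from -1.20 to 0.69. The immunoglobulin-family gene Lac had the highest ratio, 0.69 ± 0.12, and the contactin gene Cont had 0.53 ± 0.15. The gene nrv2, which is also a junction component, was the 1 gene of this list past 2-fold. The claudin gene sinu (908.0 unexposed, 207.3 with paraquat) and the scaffold gene vari (943.5 and 438.6) were above the floor on the unexposed array alone. Their signals were lower by at least 1.70-fold for sinu and 1.77-fold for vari. These folds leave out the array error, which is large at such dim signals. In the G-protein pathway of Moody, 4 of 7 genes had a probe set and 3 were measured. The G-protein alpha subunit genes Galphai and Galphao had mean log2 ratios of -0.32 and -0.33 where loco had 1.84. For Galphao the probe sets stood at -0.06 and -0.60, and Galphai turned to 0.21 when the pseudocount replaced the floor, which takes in a dim probe set.

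Genes that handle glutamate and GABA had a median log2 ratio of -0.23 over 8 measured of 10 listed, and none passed 2-fold except Gat under the 2 scalings given above. Eaat2, a transporter gene of ensheathing glia, had 39783 unexposed and 45681 with paraquat, a ratio of 0.20 ± 0.12. In the list for glial engulfment of debris, 7 of 11 genes were measured, with a median of 0.19. The engulfment receptor gene drpr had 15744 unexposed and 36510 with paraquat at 1 probe set, a ratio of 1.21 ± 0.12 (2.32-fold higher). This probe set is of a type that can share probes between transcripts. The other drpr probe set was negative on both arrays (-481.0 and -744.7). When the pseudocount replaced the floor, which averages both, the ratio of drpr was 0.59. Stat92E, a transcription factor gene that controls drpr in glia after injury and acts in many other cells, had a mean ratio of -1.37 over its 2 probe sets. One had 6402 unexposed and 1906 with paraquat, and the other 18010 and 8999, so both were lower.

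In the list of lipid carriers and the lactate shuttle, 7 of 10 genes were measured, with a median of 0.28. The perilipin gene Lsd-1, which coats lipid droplets and is abundant in fat body, had 32649 unexposed and 5868 with paraquat, a log2 ratio of -2.48 ± 0.15 (5.56-fold lower). The monocarboxylate transporter gene out had 1450 and 3184, a ratio of 1.13 ± 0.41, or 0.93 when a pseudocount replaced the floor. GLaz, a glial lipid carrier of the lipocalin family, had a ratio of 0.03, which turned to -0.02 after loess.

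**Figure D4:**
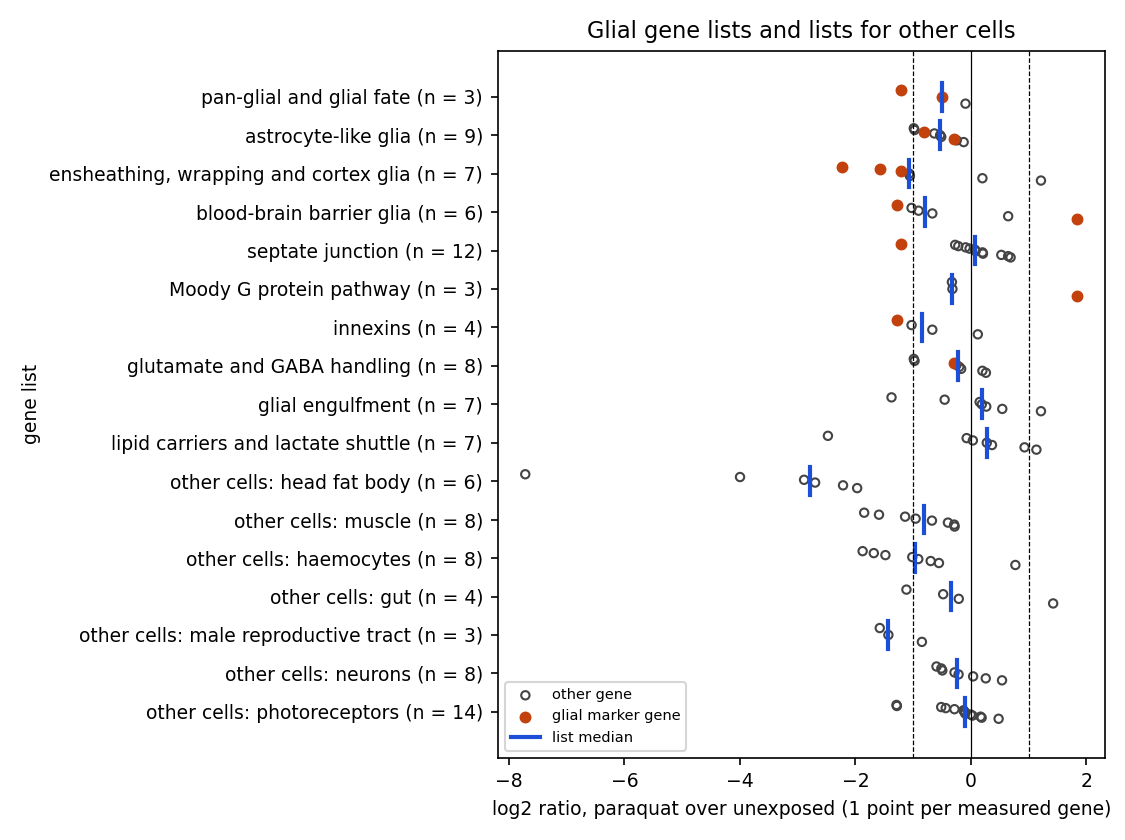
Log2 ratio of paraquat over unexposed for each measured gene (1 point per gene) in the glial lists and in lists for other cells of the head, with the glial markers in orange and list medians as blue bars. Medians of the 4 lists by glial class, markers included, lie between -1.07 and -0.51, the septate junction median is 0.08, and the head fat body median is -2.79. With the markers left out, the 4 medians lie between -0.79 (blood-brain barrier) and -0.09 (pan-glial, 1 gene).

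Markers of other cells also differed between the arrays, and their part in the glial values was not tested. All 6 measured head fat body markers of 8 listed were lower by 2-fold or more. Their median was -2.79, and the list had a summed intensity of 603331 unexposed and 91950 with paraquat. Haemocyte markers had a median of -0.96 over 8 of 10 genes, with sums of 32702 and 16568, and muscle markers -0.82 over 8 of 14, with sums of 205734 and 77243. Male reproductive tract transcripts, which do not belong to the head, summed to 50453 and 7749, and 3 of 20 listed were measured (median -1.43). A further 12 reached the floor on the unexposed array alone, and that median leaves them out. Gut genes had a median of -0.35 over 4 of 10, with sums of 30590 and 26325. Neuronal markers had a median of -0.25 over 8 of 14 genes, with none past 2-fold and sums of 72457 and 64825. Photoreceptor markers had a median of -0.11 over 14 of 22 genes, with sums of 540200 and 498795. At least 2-fold lower were 4 of the 8 haemocyte, 3 of the 8 muscle and 2 of the 14 photoreceptor markers, against the background of 8.08%. In the gut list 1 gene was 2-fold lower and 1 higher. On the unexposed array alone, 1 fat body, 2 muscle and 2 gut genes reached the floor, and with paraquat alone 2 neuronal genes did. The 3 probe sets for 18S ribosomal RNA had log2 ratios between -1.01 and -0.92, whereas the 9 control probe sets for actin, eIF-4a and GAPDH transcripts lay between -0.36 and 0.46.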

How the data were processed

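Per the labels, poly(A) RNA from heads was measured on DrosGenome1 arrays by the standard Affymetrix protocol. Each deposited value is the intensity of 1 probe set, linear and in places negative. The mean without the lowest and highest 2% was 2500 on both arrays, so the authors scaled both alike. For the software that summarised the probes, the sources used here give no name.

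Arrays were scaled to a common median of 825.2 over 13966 probe sets, the floor (477.3) was the 40th percentile of mean scaled intensity, and log2 was taken after the floor. A gene took the mean log2 ratio of its measured probe sets. The array error combines the SD of absent controls (358.3 over 46 values) with the SD of log2 ratios of 9 spiked controls (0.12). For a probe set at the floor it was 1.54, and for one 10 times brighter 0.19. Precision is limited by the number of arrays. A gene was called at 2-fold, with no test.

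Gene names came from the platform's annotation of 2016, in which 12443 had 1 symbol, 327 several and 1196 none. Gene identifiers of 12394 matched the RefSeq table of Release 6, used for names alone. The members and the 17 lists were chosen with earlier results of these data known. Named by rule were all markers, up to 4 genes past 2-fold in each glial list and genes above the floor on 1 array alone. Named after their values were seen were Gat, Gabat, wtrw, htl, wun2, Oct-TyrR, Mdr65, Gli, gcm, gcm2, pros, ogre, zpg, shakB, Inx5 to Inx7, nrv1, nrv3, Galphai, Galphao, Eaat2, GLaz, Lac, Cont and the histamine genes. Scaling, floor, pseudocount and probe-set choice were varied. Calculations used Python 3.11.15, numpy 2.4.6, pandas 2.3.3 and statsmodels 0.14.6, and were tested on simulated data.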

Additional observations from a re-analysis of the deposited data

How the results depend on the processing

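The median of the glial markers was below 0 under every alternative run. It lay between -1.03 (loess) and -0.97 (no further scaling) with the other scalings, quantile normalization included. With the brightest probe set it was -1.01 by construction, because no marker had more than 1 measured probe set. It was -0.66 with the floor at the 60th percentile (6 genes measured) and at the 80th (4 genes), -0.81 with the floor at the highest absent control (7 genes) and -0.77 when a pseudocount replaced the floor (9 genes). An alternative chosen after seeing the data, genes on 1 array kept at the floor, gave -0.81. Markers at least 2-fold lower numbered 2 at the 60th percentile floor and 1 at the 80th, where fewer genes were measured, and 3 with the absent-control floor, which drops wrapper, and with the pseudocount, under which Inx2 was within 2-fold (-0.98). At the 80th percentile floor 0 markers were at least 2-fold higher, because loco was not measured there. In 57 values of single markers under alternatives, 55 moved by less than the array error and the other 2 were both Gs2. Each measured marker had 1 measured probe set. A higher floor or the brightest-probe-set rule could thus only drop a marker or return the same ratio. Leaving out the further scaling shifted every ratio by the same amount. The values from these settings were therefore no separate check of a single marker. No paired analysis was possible because each group held 1 array, and no array could be left out. Wrapper, moody, bumpel, kumpel, sinu, vari and ort lay close to background, where the array error is large.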

Other observations

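Histamine, the transmitter of fly photoreceptors, is recycled through the epithelial glia of the lamina, and the genes of this cycle were listed after the data were seen. Of 7 genes, 5 were measured, 4 with log2 ratios below 0 and none past 2-fold, with a median of -0.25. The glial enzyme gene ebony (e), which joins histamine to beta-alanine, had an intensity of 6797 unexposed and 5734 with paraquat, a ratio of -0.25 ± 0.17. The beta-alanine transporter gene Balat had 3431 and 1911, a ratio of -0.84 ± 0.33, the lowest of the 5. On the photoreceptor side, the hydrolase gene tan (t) had 9019 and 10536, a ratio of 0.22 ± 0.14, and the histidine decarboxylase gene Hdc had 9489 and 7950, a ratio of -0.26 ± 0.14. The carcinine transporter gene CarT had a ratio of -0.20 ± 0.68. The histamine receptor gene ort reached the floor with paraquat alone (157.4 unexposed, 660.1 with paraquat), at least 1.38-fold higher. That fold leaves out the array error, and the paraquat value lay near the highest absent control of that array (533.2). A rise at ort is therefore not settled by these values. HisCl1 had no probe set of its own.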
